A study of Homo sapiens with 10 samples.

Results

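The 38 genes described here are interferon-stimulated genes, a list of symbols that was matched through Ensembl identifiers to rows of a table with 58050 genes. All 38 symbols found exactly 1 row. The list names the genes by what they are known for and uses no value from the table, but it was chosen with earlier results of these data known. The table holds TPM values, which scale reads for transcript length and to one total per library, of HCT116 cells, a human colorectal carcinoma line, in 10 libraries. HCT116-WT cells (genotype WT) and HCT116-CD276KO cells (genotype CD276KO) gave 5 libraries each, from cultures kept in McCoy's 5A medium with fetal calf serum and taken as biological replicates. The HCT116-CD276KO cells were made with Cas9 and a guide RNA against CD276 and came from 1 single cell clone, so that the comparison is between this clone and the parental line. The labels name a scrambled guide as the control of the editing, but do not say whether the sequenced HCT116-WT cells had received it. No interferon is listed among the treatments.

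Interferon-stimulated genes are the effector arm of the antiviral response. Type I and type III interferons bind receptors on the cell surface, the kinases JAK1 and TYK2 pass the signal on, and a complex that holds IRF9 binds the interferon-stimulated response element in the promoters of the genes. The products bind, cut, edit or sense viral RNA, hold virions at membranes, or modify proteins with the ubiquitin-like ISG15. Many tumour lines keep some of these genes on without added interferon, at levels that differ widely from gene to gene.

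CD276 stood at 49.3, 42.02, 53.61, 38.08 and 43.27 TPM in HCT116-WT replicates 1 to 5, and the HCT116-CD276KO replicates 1 to 5 had 4.4, 7.42, 5.79, 4.79 and 4.89 TPM, so each library went with its label. Of 11 markers of a colorectal epithelial line, 6 had a mean of at least 1 TPM in both groups, and CDX1, VIL1 and CEACAM5 were at or near 0. The epithelial markers summed to 4182 to 4955 TPM in HCT116-WT and to 3317 to 3784 TPM in HCT116-CD276KO libraries, and the part of this in the values below was not tested. Leukocyte markers summed to between 9.73 and 17.8 TPM, from CD68 and HLA-DRA, with PTPRC near 0. HLA-DRA, a class II antigen-presenting chain that interferon gamma also induces in epithelial cells, rose from 1.94 ± 0.374 to 3.87 ± 0.527 TPM (SD, n = 5), without overlap (limma, adjusted p-value 0.00387), and CD68 had means of 13.2 and 9.58 TPM (adjusted p-value 0.202). HLA-DRA is no member and is named after its values were seen. The sums reached at most 8.99 TPM for fibroblast markers, from COL1A1, and 0.65 TPM for endothelial markers. In bulk RNA, fewer cells that express a gene and less RNA of it per cell cannot be told apart. A trend with transcript length set libraries apart. Its Spearman correlation, over genes and against the mean of all libraries, was lowest in replicates 2 and 3 of the HCT116-CD276KO cells, at -0.482 and -0.443, and highest in replicate 1 of the HCT116-WT cells, at 0.393. The longer members are set beside this trend below, and its part in their values was not tested. A trend with GC content was present as well, with correlations from -0.335 in HCT116-WT replicate 1 to 0.596 in HCT116-WT replicate 3. HCT116-CD276KO replicate 2 was at 0.471 for GC content. The number of reads behind a TPM value is not kept, so the depth of each library is unknown and no counting interval is given.

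At baseline, in HCT116-WT cells, 5 of the 38 genes were silent, 8 were low and 25 were expressed. Silent means a mean under 0.1 TPM over the 5 HCT116-WT libraries, low a mean from 0.1 to under 1 TPM, and expressed a mean of 1 TPM or more. The silent genes were IFI44L, OAS2, MX2, RSAD2 and XAF1. IFI44L was listed at 0 in all 10 libraries, and the other 4 silent genes reached at most 0.2 TPM in any HCT116-WT library. RSAD2 encodes viperin, an enzyme that makes a chain-terminating nucleotide, and stood at 0.03, 0, 0.01, 0.2 and 0.02 TPM. XAF1, a pro-apoptotic partner of XIAP, stood at 0.07, 0, 0.05, 0.02 and 0 TPM. OAS2 was above 0 in HCT116-WT replicate 2 alone, at 0.05 TPM, and MX2 did not pass 0.02 TPM. The lowest gene above the limit was OAS1, with a mean of 0.344 TPM, so no member lay close to 0.1 TPM, and the highest silent gene was RSAD2 with a mean of 0.052 TPM.

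The low genes were CMPK2, IFITM1, IFIT3, IFIT2, IFI44, MX1, EPSTI1 and OAS1, with HCT116-WT means that fell in that order from 0.852 to 0.344 TPM. MX1, the dynamin-like GTPase that is the usual marker of an interferon response, had 0.36, 0.27, 0.6, 0.85 and 0.43 TPM. Neighbouring genes of this order were close to each other relative to their spread, as for IFIT3 (0.692 ± 0.119 TPM, SD, n = 5) and IFIT2 (0.588 ± 0.113 TPM, SD, n = 5). The remaining 25 genes spanned from 1.52 ± 0.404 TPM in IFI27 to 412 ± 41.8 TPM in IFITM3 (SD, n = 5). The 5 most abundant members, IFITM3, LGALS3BP, IFITM2, ADAR and ISG15, held 85.4% of the summed TPM of the list in HCT116-WT cells. By mean level over all 10 libraries of both groups, IFITM3 stood above 97.3% of all tested genes, while BST2 stood above 6.23% of them.

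**Figure D1:**
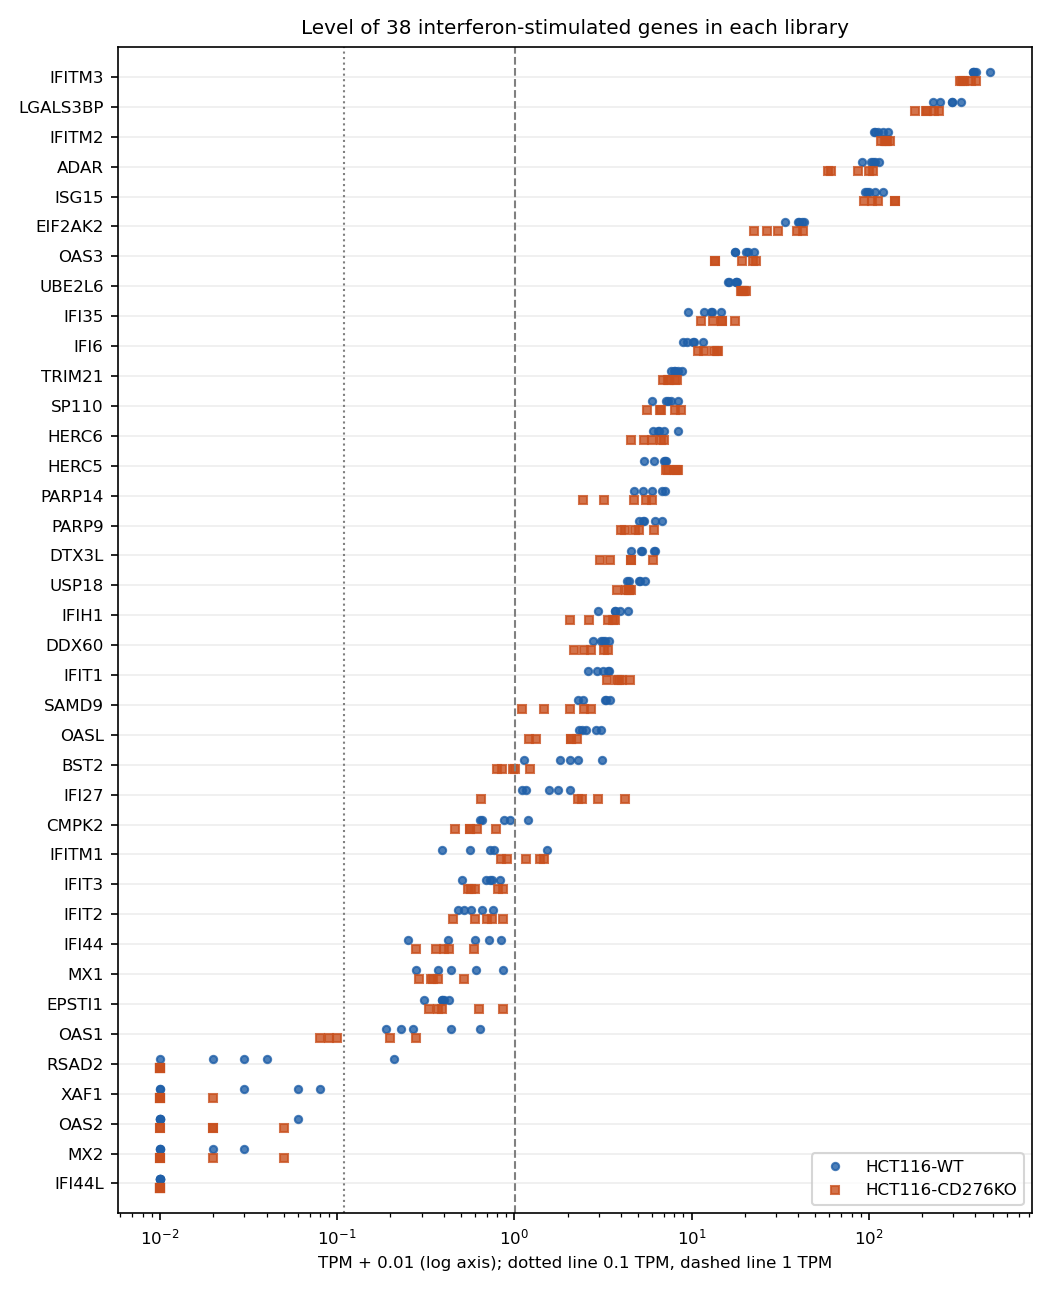
TPM of each of the 38 genes in each library, plotted as TPM + 0.01 on a log axis, with circles for 5 HCT116-WT libraries and squares for 5 HCT116-CD276KO libraries, ordered by the HCT116-WT mean. The 5 genes at the bottom lie under 0.1 TPM on average, and the top gene, IFITM3, lies between 327.87 and 485.99 TPM.

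Members that lie side by side often differed in level. Of the 38 genes, 20 lie in 8 runs in which the next member is within 500 kb. On chromosome 12 of hg38, OAS1 (112905856 to 112933219), OAS3 (112938051 to 112976460) and OAS2 (112978395 to 113011723) lie side by side on the plus strand, and their HCT116-WT means were 0.344, 19.8 and 0.01 TPM. On chromosome 11, IFITM2 (303655 to 309397), IFITM1 (310041 to 315272) and IFITM3 (319676 to 329475) had means of 115, 0.784 and 412 TPM. The ranges of these neighbours over the 10 libraries did not overlap, with OAS1 and OAS2 closest, at a lowest value of 0.07 and a highest of 0.05 TPM. Other runs were even: PARP9, DTX3L and PARP14 on chromosome 3 had means of 5.76, 5.45 and 5.97 TPM, and HERC6 and HERC5 on chromosome 4 had means of 6.87 and 6.55 TPM. IFIT2, IFIT3 and IFIT1 on chromosome 10 had 0.588, 0.692 and 3.1 TPM. IFITM2 and IFITM3 are near-identical copies, so that the split of reads between them is uncertain, and the same holds for USP18, which has close copies elsewhere in the genome.

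The response element was looked for as the 10 letters GAAANNGAAA on either strand, in windows from 250 bases before to 50 bases after each annotated start, taken from RefSeq on GRCh38.p14. Windows were found for 32 of the 38 genes, and 24 of these genes (75.0%) held at least 1 match, against 4.38% of all 27305 genes with a window. Counted by window, where a gene with several starts enters several times, 28 of 46 member windows (60.9%) and 3.57% of all 35116 windows held a match. Matches were present at every baseline level: in 2 of 3 silent genes with a window, 5 of 7 low genes and 17 of 22 expressed genes. IFIT2, IFITM2, OAS2, OASL, MX2 and USP18 had no window. The windows of UBE2L6, HERC6, ADAR, IFI35, SP110, OAS1, CMPK2 and XAF1 held no match, among them ADAR at 105 TPM and XAF1 at 0.028 TPM. No other motif was searched, and a match is a description of the letters and not of binding.

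The contrast between level and letters is clearest in the most abundant member and the one listed at 0 in every library. The 250 bases before the start are shown for both, 5′ to 3′ on the strand of the gene, with the matched letters in capitals. IFITM3 lies on the minus strand (chr11:320861-321110) and IFI44L on the plus strand (chr1:78620198-78620447).
IFITM3: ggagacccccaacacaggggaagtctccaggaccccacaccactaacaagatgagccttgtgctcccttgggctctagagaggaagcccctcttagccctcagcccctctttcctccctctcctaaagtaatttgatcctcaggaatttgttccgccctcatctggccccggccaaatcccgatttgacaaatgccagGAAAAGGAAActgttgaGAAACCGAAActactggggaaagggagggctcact
IFI44L: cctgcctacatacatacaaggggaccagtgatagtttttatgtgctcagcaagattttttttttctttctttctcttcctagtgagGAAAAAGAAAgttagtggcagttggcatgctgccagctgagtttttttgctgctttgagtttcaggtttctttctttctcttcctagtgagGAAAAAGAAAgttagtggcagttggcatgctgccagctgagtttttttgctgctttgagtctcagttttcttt
Both sequences held 2 matches, whose first bases lay at -52 and -35 from the start of IFITM3 and at -164 and -73 from the start of IFI44L. The 30 bases around the match were the same at both places of IFI44L.

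Shorter stretches of 30 bases show how the matches lie in members that the comparison below turns on. ISG15 (chr1:1013377-1013406, plus strand), BST2 (chr19:17405738-17405767, minus strand) and IFIT1 (chr10:89392504-89392533, plus strand) each held a pair of matches, which overlap in ISG15 and BST2. The matches of IFIT1 read on the strand opposite to the gene. HERC5 (chr4:88456987-88457016, plus strand) held an overlapping pair, also on the opposite strand. IFI6 (chr1:27672288-27672317, minus strand) and LGALS3BP (chr17:78979962-78979991, minus strand) are shown with 1 match each. DTX3L (chr3:122564322-122564351, plus strand) shares its match with PARP9.
ISG15: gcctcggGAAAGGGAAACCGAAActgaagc
BST2: tttctggGAAACTGAAACTGAAAacctaat
IFIT1: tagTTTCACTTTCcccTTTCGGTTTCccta
HERC5: attacagTTTCCTTTTCCTTTTCgattccg
IFI6: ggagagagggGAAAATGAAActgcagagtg
LGALS3BP: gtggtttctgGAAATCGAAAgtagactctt
DTX3L: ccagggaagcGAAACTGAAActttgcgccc
PARP9 and DTX3L start from opposite strands of the same stretch on chromosome 3, and the match from 122564332 to 122564341 lies in the windows of both. Their levels were of like size, between 3.98 and 6.84 TPM for PARP9 and between 3.04 and 6.19 TPM for DTX3L.

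None of the tested members passed the test between HCT116-CD276KO and HCT116-WT cells. The comparison asks whether loss of CD276 in this clone went with a change in the basal interferon programme. The test was limma on log2(TPM + 1) over the 13581 genes whose mean reached 1 TPM, 25 of the 38 members among them. The remaining 13, whose mean was under 1 TPM, were not tested. With an adjusted p-value under 0.05 from limma, 0 of 25 members were called, where 4.87% of all tested genes were called (4.09% lower and 0.781% higher). With a 2-fold limit added the count was also 0, where 0.486% of all tested genes passed. At an unadjusted p-value under 0.05 from limma there were 10 of 25 members, against 21.9% of all tested genes, and by a two-sided exact permutation test 8 of 25 had p under 0.05, against 20.4% of all tested genes. The smallest adjusted p-value was 0.0513, for BST2. The groups did not overlap in 3 of 25 members, UBE2L6, HERC5 and OASL, where 7.61% of all tested genes did not overlap. In 17 members the fold change was below 0 and in 8 above 0, and 68.1% of all tested genes had a fold change below 0. The median log2 fold change was -0.15 for the members and -0.09 for all tested genes. After a correction for transcript length and GC content, described further on, 14 members were below 0 and 11 above, with medians of -0.06 for the members and 0.01 for all tested genes.

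A p-value that misses the threshold does not show that the levels were the same, so the 95% intervals of the changes from limma are given. They lay within 2-fold either way for all 25 tested members, as they did for 95.4% of all tested genes, and within 1.5-fold for 16 members and 79.8% of all tested genes. On log2(TPM + 1) the change of a gene with a few TPM comes out smaller than it is in TPM. The bound of 2-fold is therefore shown on this scale alone, and intervals without a pseudocount are not given. BST2, with a lower end at -0.97, and IFI27, with an upper end at 0.95, came closest to it. The log2 ratio of mean TPM of BST2 with no pseudocount was -1.11, past the bound. The intervals are not adjusted for the number of genes. No gene that was silent in HCT116-WT cells reached 1 TPM in any HCT116-CD276KO library, and the same number of members, 5, had a mean under 0.1 TPM in both groups.

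The 5 members with a role in ISG15 conjugation were all expressed. UBE2L6 and HERC5 stood higher in every HCT116-CD276KO library than in every HCT116-WT library without passing the test. UBA7, the activating enzyme for ISG15, is no member. It was low, with HCT116-WT and HCT116-CD276KO means of 0.266 and 0.196 TPM, and was not tested. ISG15, the ubiquitin-like modifier, stood at 97.14, 95.62, 120.19, 107.84 and 100.46 TPM in HCT116-WT replicates 1 to 5 against 94.1, 140.61, 141.01, 113.1 and 104.77 TPM in the 5 HCT116-CD276KO replicates in the same order. The groups overlapped, and the highest values came from HCT116-CD276KO replicates 2 and 3. The log2 fold change was 0.17 (adjusted p-value 0.386, standard error 0.12), and without those libraries, a step chosen after seeing the data, it was -0.0025. UBE2L6, the conjugating enzyme for ISG15, stood at 15.96, 17.82, 18.07, 16.2 and 17.78 TPM and then at 20.18, 19.36, 19.41, 19.67 and 18.89 TPM. Its lowest HCT116-CD276KO value lay above its highest HCT116-WT value, with a log2 fold change of 0.18 (95% interval 0.04 to 0.31, adjusted p-value 0.130, exact permutation p = 0.00794, the smallest that 5 against 5 allow). HERC5, the ligase that attaches ISG15 to new proteins, stood at 6.98, 7.17, 5.4, 7.07 and 6.13 TPM and then at 8.42, 7.19, 8.04, 7.37 and 8.29 TPM. The gap between its groups was narrow, 7.17 against 7.19 TPM, and the log2 fold change was 0.24 (adjusted p-value 0.156, standard error 0.09). USP18, the protease that removes ISG15 and dampens the type I receptor, had means of 4.86 and 4.29 TPM, and HERC6 means of 6.87 and 5.91 TPM, both with overlapping groups and log2 fold changes of -0.15 and -0.19.

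Of the IFIT genes, whose products bind the ends of foreign RNA, only IFIT1 was tested. IFIT1 stood at 3.38, 3.43, 2.6, 2.91 and 3.17 TPM in HCT116-WT replicates 1 to 5 against 4.51, 3.32, 3.78, 4.05 and 3.88 TPM in the 5 HCT116-CD276KO replicates in the same order. Replicate 2 of the HCT116-CD276KO cells lay among the HCT116-WT values and the other 4 above them, with a log2 fold change of 0.26 (95% interval 0.05 to 0.47, adjusted p-value 0.149). IFIT2 ranged from 0.44 to 0.85 TPM and IFIT3 from 0.5 to 0.85 TPM over all 10 libraries, with groups that overlapped throughout.

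None of the 3 tested membrane proteins passed the test. IFITM3, which blocks the fusion of incoming viruses, stood at 391.63, 404.02, 485.99, 388.7 and 389.74 TPM and then at 376.05, 401.49, 334.44, 344.3 and 327.87 TPM. All but 1 of the HCT116-CD276KO values lay under the lowest HCT116-WT value, and the log2 fold change was -0.21 (95% interval -0.38 to -0.03, adjusted p-value 0.161). Its neighbour IFITM2 stood at 129, 107.83, 113.09, 106.78 and 120.42 TPM and then at 126.19, 132.2, 117.2, 124.33 and 123.22 TPM, which on the log2 scale is a difference of 0.11 (adjusted p-value 0.321). IFITM1 ranged from 0.38 to 1.51 TPM and was not tested. BST2, or tetherin, which holds budding virions at the cell surface, had the change of largest size on log2(TPM + 1) among the tested members. BST2 stood at 1.81, 2.04, 1.13, 2.29 and 3.12 TPM in HCT116-WT cells and at 1, 0.97, 0.84, 0.79 and 1.21 TPM in HCT116-CD276KO cells. The groups overlapped through HCT116-WT replicate 3 alone. The log2 fold change was -0.62 (95% interval -0.97 to -0.27, adjusted p-value 0.0513, exact permutation p = 0.0159), and its means were 2.08 ± 0.725 and 0.962 ± 0.164 TPM (SD, n = 5). BST2 thus reached the mean of 1 TPM needed for the test through its HCT116-WT values. Over the alternative settings its adjusted p-value ran from 0.0112, without HCT116-WT replicate 3, to 0.186, and 3 settings put it under 0.05.

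The OAS enzymes make the oligoadenylates that switch on RNase L. OAS3, the family member with the longest protein, stood at 20.76, 20.24, 17.61, 17.69 and 22.61 TPM and then at 22.2, 13.6, 13.58, 19.31 and 23.02 TPM. Replicates 2 and 3 of the HCT116-CD276KO cells were the lowest of all 10 libraries and replicate 5 was the highest, and the log2 fold change was -0.13 (adjusted p-value 0.623, standard error 0.15). OASL, an enzymatically inactive relative that boosts RIG-I, stood at 3.09, 2.88, 2.3, 2.53 and 2.41 TPM and then at 2.26, 1.2, 1.32, 2.08 and 2.07 TPM. Every HCT116-CD276KO value was under every HCT116-WT value, with a log2 fold change of -0.40 (95% interval -0.70 to -0.10, adjusted p-value 0.118, exact permutation p = 0.00794). OAS1 ranged from 0.18 to 0.63 TPM in HCT116-WT and from 0.07 to 0.27 TPM in HCT116-CD276KO cells.

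The genes for sensing and editing double-stranded RNA were lower on average in HCT116-CD276KO cells, none past the test. ADAR, the enzyme that turns adenosine into inosine in double-stranded RNA, stood at 109.11, 106.2, 102.82, 91.78 and 113.71 TPM and then at 105.42, 58.99, 61.58, 86.41 and 100.11 TPM. Its HCT116-CD276KO values were split, with replicates 2 and 3 far under the other 3. The log2 fold change was -0.38 (95% interval -0.72 to -0.03, adjusted p-value 0.191). EIF2AK2, or PKR, the kinase that stops translation on binding double-stranded RNA, stood at 43.34, 40, 33.49, 40.21 and 41.99 TPM and then at 42.74, 22.54, 26.63, 30.59 and 39.3 TPM, with the same libraries lowest. Its log2 fold change was -0.32 (95% interval -0.66 to 0.02, adjusted p-value 0.248). IFIH1, or MDA5, a sensor of long double-stranded RNA, had means of 3.72 and 3.06 TPM, and the helicase DDX60 means of 3.13 and 2.78 TPM.

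The MX genes and the viperin locus were near the floor of the table in both groups. MX1 ranged from 0.28 to 0.51 TPM in HCT116-CD276KO cells, within its range in HCT116-WT cells. RSAD2 was listed at 0 in all 5 HCT116-CD276KO libraries, and MX2 at 0.04 TPM in replicate 4, 0.01 TPM in replicate 1 and 0 in the other 3. CMPK2, the mitochondrial nucleotide kinase whose gene overlaps RSAD2 on the opposite strand of chromosome 2, ranged from 0.45 to 0.78 TPM in HCT116-CD276KO and from 0.63 to 1.19 TPM in HCT116-WT cells. None of these genes was tested.

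PARP9 and DTX3L, which form a complex of an ADP-ribosyltransferase and a ubiquitin ligase, had log2 fold changes of -0.22 and -0.30. PARP14, a further ADP-ribosyltransferase, stood at 7.03, 5.96, 5.3, 4.71 and 6.83 TPM and then at 5.94, 2.43, 3.2, 4.72 and 5.55 TPM, again with replicates 2 and 3 lowest, a log2 difference of -0.41 (adjusted p-value 0.232, standard error 0.19). TRIM21, the cytosolic antibody receptor and ubiquitin ligase, had close means of 8.18 ± 0.468 and 7.60 ± 0.583 TPM (SD, n = 5), with an adjusted p-value of 0.464.

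Among the other members LGALS3BP and IFI6 came closest to the threshold, in opposite directions. LGALS3BP, a secreted glycoprotein that binds galectins, stood at 295.79, 253.09, 330.04, 228.98 and 293.58 TPM and then at 232.13, 248.22, 182.76, 209.06 and 212.66 TPM. The groups overlapped through HCT116-WT replicate 4, and the log2 fold change was -0.36 (95% interval -0.60 to -0.13, adjusted p-value 0.0798). IFI6, a small anti-apoptotic membrane protein, stood at 8.93, 10.3, 11.65, 10.2 and 9.37 TPM and then at 10.8, 13.95, 14.09, 11.79 and 13.43 TPM, which on the log2 scale is a difference of 0.32 (95% interval 0.11 to 0.52, adjusted p-value 0.0862). Only HCT116-CD276KO replicate 1 lay within the HCT116-WT range. IFI35 stood at 14.62, 11.73, 12.85, 13.07 and 9.52 TPM and then at 14.83, 17.63, 14.9, 11.36 and 13.21 TPM, with an adjusted p-value of 0.350. IFI27 had the widest interval of all members. It stood at 1.1, 1.16, 2.06, 1.55 and 1.75 TPM and then at 4.18, 2.39, 2.95, 0.64 and 2.29 TPM, with its highest and its lowest value both in HCT116-CD276KO libraries and a log2 fold change of 0.39 (95% interval -0.18 to 0.95, adjusted p-value 0.378). SAMD9, a large restriction factor of poxviruses, had means of 2.94 and 1.95 TPM (adjusted p-value 0.161), and SP110, a nuclear body protein, means of 7.31 and 7.15 TPM (adjusted p-value 0.871). EPSTI1 ranged from 0.3 to 0.85 TPM and IFI44 from 0.24 to 0.83 TPM over all libraries.

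**Figure D2:**
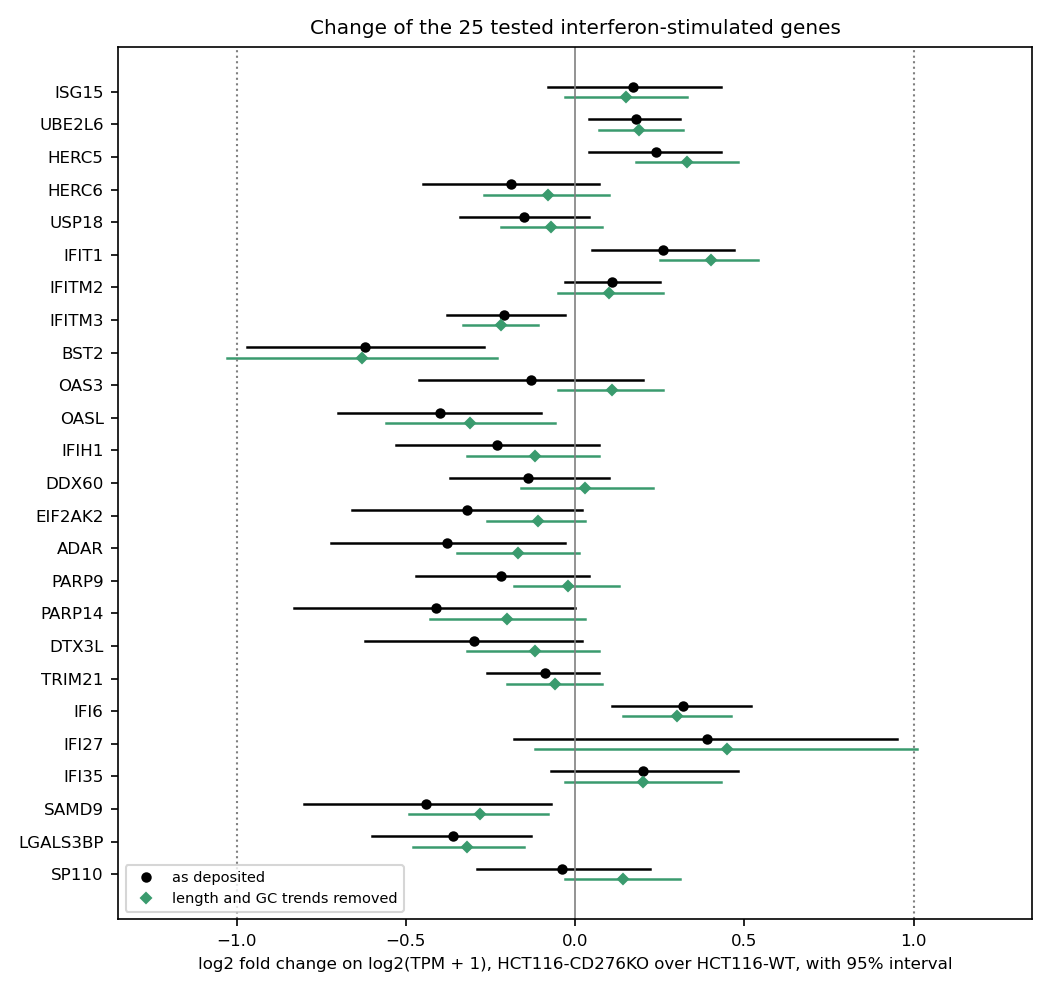
Log2 fold change of HCT116-CD276KO over HCT116-WT cells on log2(TPM + 1), with its 95% interval from limma, for the 25 tested members in order of their roles. Circles are the values as deposited and diamonds the values after the correction for length and GC content. All circles have intervals within the dotted lines at 2-fold, and OAS3, ADAR, EIF2AK2 and PARP14, all long genes, move toward 0 or past it in the second set while IFIT1 moves away from it.

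The members with long transcripts had their lowest values in the same libraries. Within the 5 HCT116-CD276KO libraries, replicates 2 and 3 were set against replicates 1, 4 and 5, a split by the length trend of the libraries that was chosen after seeing the data. Of the 12 tested members whose longest annotated transcript was over 3511 bases, the median length of the tested members, all 12 were lower in replicates 2 and 3, with a median difference of -0.48 in log2(TPM + 1). For the 13 members at or under this length the median was -0.01. Over all tested genes the same medians were -0.27 and 0.01. The Spearman correlation of this difference with transcript length was -0.89 over the 25 members and -0.55 over 13472 tested genes, given as a description, since all genes share the same libraries. PARP14 had the lowest difference, -0.75, and ISG15, with a longest transcript of 787 bases, the highest, 0.44. In 11 of the 12 long members the lowest of all 10 libraries was HCT116-CD276KO replicate 2 or 3. These libraries were picked by the length trend over all genes, so low values of long members there are no separate finding. Of the tested members 20 of 25 were lower there, as were 8988 of 13472 tested genes. No such share is given for the long genes alone.

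Removing the trend with length and GC content from each library changed the calls. The median log2 fold change of the 12 long members moved from -0.22 to -0.10, and that of ADAR from -0.38 to -0.17, of EIF2AK2 from -0.32 to -0.11, of PARP14 from -0.41 to -0.20 and of PARP9 from -0.22 to -0.02. OAS3, DDX60 and SP110 changed sign. With this correction 5 of 25 members passed limma's adjusted threshold of 0.05, where 9.09% of all genes tested in this way did (4.15% higher and 4.94% lower). IFIT1 (log2 fold change 0.40, adjusted p-value 0.00427), HERC5 (0.33, 0.0137) and IFI6 (0.30, 0.0268) were higher, and IFITM3 (-0.22, 0.0203) and LGALS3BP (-0.32, 0.0252) lower in HCT116-CD276KO cells. All these changes had intervals within 2-fold, the widest reach being that of IFIT1, from 0.25 to 0.54. Without HCT116-CD276KO replicates 2 and 3, 0 members were called by limma, where 2.5% of all tested genes were, and the log2 fold changes were -0.11 for ADAR, -0.09 for EIF2AK2 and -0.11 for PARP14. The part that the length trend has in the values of a single gene was not tested.

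Summed over the list, the members gave 1207, 1142, 1311, 1093 and 1200 TPM in HCT116-WT replicates 1 to 5 and 1125, 1125, 988, 1036 and 1050 TPM in HCT116-CD276KO replicates 1 to 5. The sums overlapped through HCT116-WT replicate 4, and IFITM3 and LGALS3BP had the largest differences in mean TPM. Without the 5 most abundant members the sums were 174 ± 10.4 and 165 ± 20.4 TPM (SD, n = 5).

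Of the genes that carry the interferon signal, the receptors, kinases and factors were expressed, and the ligands were silent. Of 41 such genes, 27 were tested and 0 passed limma's adjusted threshold of 0.05, with 4 at an unadjusted p-value under 0.05 and 5 by the exact permutation test, where the shares of all tested genes were 21.9% and 20.4%. All 10 ligands, among them IFNB1 and IFNL1, had means under 0.1 TPM in both groups. All 6 receptor chains were expressed in both groups, with HCT116-WT and HCT116-CD276KO means of 26.3 and 25.8 TPM for IFNAR1, 14.3 and 14.6 TPM for IFNAR2, 5.97 and 5.31 TPM for IFNLR1 and 14.8 and 14.4 TPM for IL10RB. Of the receptor of interferon gamma, IFNGR1 ranged from 21.87 to 28.33 TPM over all libraries and IFNGR2 from 44.07 to 55.25 TPM. STAT2 had means of 13.4 and 12.3 TPM and IRF9 of 6.01 and 5.54 TPM, with adjusted p-values of 0.525 and 0.678. Among the sensors of foreign nucleic acid, CGAS, ZBP1 and IFI16 had means under 0.1 TPM in both groups and DHX58 means of 0.656 and 0.504 TPM, while RIGI had means of 4.03 and 3.04 TPM and STING1 of 7.44 and 6.17 TPM. IRF3, the factor that is activated below these sensors, was lower in every HCT116-CD276KO library than in every HCT116-WT library, with means of 42.5 ± 2.87 and 34.9 ± 3.28 TPM (SD, n = 5), which on the log2 scale is a difference of -0.28 and an adjusted p-value of 0.0655. It was the only one of the 27 tested genes without overlap, where 7.61% of all tested genes had none. After the length and GC correction IRF3 was at -0.20 (adjusted p-value 0.117), and over the alternatives its adjusted p-value ran from 0.0340, without HCT116-CD276KO replicates 2 and 3, to 0.322.

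A further list of 55 genes, drawn up as interferon-stimulated, was looked at beside the members. Of these 37 were tested, and 2, both lower, passed limma's adjusted threshold of 0.05. Of all tested genes 4.87% passed, with 4.09% called lower. After the length and GC correction 5 passed, 3 lower and 2 higher, where 9.09% of all genes did. By limma ISG20 (log2 fold change 0.50, adjusted p-value 0.0432) and LY6E (0.16, 0.049) were higher. HELZ2, ISG20L2 (-0.26, 0.0266) and SHISA5 (-0.19, 0.0271) were lower. ISG20, LY6E and SHISA5 passed in no other fit. The median log2 fold change of the 37 was -0.16 before this correction, with 29 below 0, and -0.01 after it, with 19 below 0. HELZ2, a helicase and nuclear receptor coactivator with a longest transcript of 10002 bases, fell from 8.95 ± 1.52 to 4.48 ± 0.812 TPM (SD, n = 5), which on the log2 scale is a difference of -0.86 (95% interval -1.15 to -0.57, adjusted p-value 0.00362). Its groups did not overlap, which held for 6 of the 37 genes and for 7.61% of all tested genes. After the correction for length and GC content the log2 fold change of HELZ2 was -0.64 (adjusted p-value 0.00104). ISG20L2, an exonuclease of ribosomal RNA processing, fell from 34.7 ± 2.08 to 27.1 ± 3.40 TPM (SD, n = 5), which on the log2 scale is a difference of -0.35 (adjusted p-value 0.0472), and this call was lost in 13 of 19 alternative fits. Whether interferon induces ISG20L2 is not shown by these data, and it is counted here because the list holds it. Of the 18 genes that were not tested, the guanylate-binding proteins GBP4 and GBP5 and the chemokines CXCL10 and CXCL11, all strong targets of interferon gamma, had means of at most 0.024 TPM in both groups.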

How the data were processed

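RNA of 5 HCT116-WT and 5 HCT116-CD276KO cultures was sequenced by the authors from poly(A) selected, strand-specific libraries with single short reads. The deposited values are TPM per gene, scaled for transcript length and to one total per library, made by the authors from reads mapped to hg38. The submitters' processing notes name STAR 2.5.2b, RSEM 1.3.0 and featureCounts 1.5.1, and which of these programs gave the TPM, and whether counting used strand, is not given in the sources used here. The columns summed to between 999999 and 1000000, no library was identical to another, and depth per library cannot be read from TPM.

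The members and the other gene lists were chosen with earlier results of these data known. All 38 members matched 1 identifier each. The 13581 genes whose mean reached 1 TPM were fitted with limma 3.58.1 in R 4.3.3 on log2(TPM + 1), with a variance trend and Benjamini-Hochberg adjustment over all of them. The study used a count model, which TPM do not allow. Two-sided exact permutation tests of 5 against 5 gave p-values for single genes, with 0.00794 as the smallest. P-values measure the spread between cultures of a line and of 1 clone. The script was tested on simulated data. Full values by library were given for CD276 and the 10 most abundant members by rule. The other members so described were chosen after their values were seen.

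A second fit removed from each library a smooth trend (loess, span 0.3) with transcript length and GC content, for the 13472 genes (99.2%) with both. Gene positions are from GENCODE 44. Replicate numbers are shared between the groups, but the correlations of same-numbered libraries, between -0.181 and 0.119, gave no sign that the numbers pair the cultures. The alternatives were another pseudocount, other filters, median-of-ratios scaling, quantile normalization, a robust variance model, a replicate block and leaving out each library. Leaving out HCT116-CD276KO replicates 2 and 3 together was added after seeing the data.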

Additional observations from a re-analysis of the deposited data

Results flagged for a closer look

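In 6 of the 73 gene and group combinations examined, a single library stood apart from the other 4. Its gap, as a share of the range, was over Dixon's limit of 0.71. Chance gives about 1 in 20, and so 3.65, only where values are continuous and spread like a normal distribution. IFITM3 in HCT116-WT replicate 3 was at 485.99 TPM, with the others between 388.7 and 404.02 TPM (gap 0.843). After the length and GC correction its log2 value there was 8.77, with the other HCT116-WT libraries between 8.61 and 8.74. The remaining 5 concern silent genes at or near 0, with values given to 0.01 TPM, so the 3.65 cannot be set against them. OAS2 was at 0.05 TPM in HCT116-WT replicate 2 and at 0 in the others (gap 1.0), and at 0.04 TPM in HCT116-CD276KO replicate 1 with the others at 0 to 0.01 TPM (gap 0.75). MX2 was at 0.04 TPM in HCT116-CD276KO replicate 4 with the others at 0 to 0.01 TPM (gap 0.75). RSAD2 was at 0.2 TPM in HCT116-WT replicate 4 with the others at 0 to 0.03 TPM (gap 0.85). XAF1 was at 0.01 TPM in HCT116-CD276KO replicate 5 and at 0 in the others (gap 1.0).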

How the results depend on the processing

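The count of 0 members past limma's adjusted threshold became 1 with a pseudocount of 0.1 (BST2), 1 with median-of-ratios scaling (IFIT1), 3 with quantile normalization (UBE2L6, HERC5 and IFIT1), 5 after correcting for length and GC, and 1 under the robust variance model (BST2). The share of all tested genes called was 4.92%, 4.27%, 4.70%, 9.09% and 5.03% in these fits. Leaving out single libraries gave between 0 and 1, with 1 without HCT116-WT replicate 3 (BST2), HCT116-WT replicate 4 (LGALS3BP) and HCT116-CD276KO replicate 1 (IFI6). In these fits 4.88%, 3.1% and 6.31% of all tested genes were called. Over all fits without a single library this share ran from 2.53% to 6.31%, which also stands beside the further genes below. The count of 2 genes called in the further list became 1 with median-of-ratios scaling, quantile normalization and without HCT116-CD276KO replicates 2 and 3. It became 5 with the length and GC correction, and ran from 1 to 2 without single libraries. The signalling genes had 1 call, IRF3, without HCT116-CD276KO replicates 2 and 3. The fit with a replicate block gave 0 members, 1 further gene and 378 of all genes, against 662 without it, and only HCT116-WT replicate 5 correlated best with its own number.

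Of 491 log2 fold changes of members under the alternatives, 12 changed sign, and the cause was not tested. ISG15 was at -0.0025 and OAS3 at 0.12 without HCT116-CD276KO replicates 2 and 3. OAS3 was at 0.0015 with quantile normalization and 0.11 with the length and GC correction, DDX60 at 0.03 with that correction and TRIM21 at 0.03 with quantile normalization. SP110 was at 0.05 with median-of-ratios scaling, 0.09 with quantile normalization, 0.14 with the correction, 0.08 without HCT116-CD276KO replicates 2 and 3, and between -0.10 and 0.04 without single libraries. The count of 5 silent genes was 7 at a limit of 0.5 TPM, 13 at 1 TPM, 4 where every HCT116-WT library had to be under 0.1 TPM and 1 where every one had to be at 0. The study gives an average depth over its samples. The depth of each library is unknown, which limits what can be said of genes near 0.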
